A study of Mus musculus with 19 samples.

Results

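The 10 genes described here mark the wall of brain blood vessels, and their transcripts were measured in whole hippocampus on Agilent arrays. They were given by name, as 6 genes of endothelial cells (Cldn5, Ly6c1, Pecam1, Flt1, Slco1a4 and Tek) and 4 genes of mural cells (Pdgfrb, Acta2, Tagln and Rgs5). Every probe whose accession belongs to a RefSeq transcript of a member was taken, and all 10 members were among the 25514 genes tested. The arrays came from 19 mice of 8 months in 3 groups. WT littermates received vehicle (DMSO, n = 6), APP/PS1 mice received vehicle (n = 7), and APP/PS1 mice received urolithin A (UA, n = 6) at 200 mg per kg per day by gavage from 6 months of age. DMSO was the solvent of UA as well. APP/PS1 mice, of a Jackson laboratory strain, carry human amyloid precursor protein and presenilin transgenes driven by a prion protein promoter and deposit amyloid in the brain, and UA is a compound that gut bacteria make from plant ellagitannins. The comparison of APP/PS1 vehicle with WT asks what the amyloid model changed in vessel transcripts, and that of UA with APP/PS1 vehicle asks what the treatment changed on that background.

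Brain capillaries consist of endothelial cells that are sealed by tight junctions and carry dedicated transporters, and together these form the blood-brain barrier. Mural cells wrap the endothelium: pericytes sit on capillaries, and contractile smooth muscle cells ring arterioles and arteries. Both layers signal to each other through VEGF, angiopoietin and PDGF pathways, and vessels in amyloid-laden brain are known for changes in barrier and wall. In bulk tissue, fewer cells of a type and less RNA per cell cannot be told apart.

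A level below is log2 of the green (Cy3) processed signal minus the array's 75th percentile, which ran from 663 to 1776 intensity units. Levels are compared between arrays and not between genes, since each probe has its own brightness. Precision is limited by how many arrays a group has. Nothing in the labels says whether arrays of a group were prepared apart, so p-values measure the spread between these samples. The tissue carried neuronal markers as labelled: all 6 neuron markers were measured, with a mean level of 4.62 to 5.25 over arrays. A list of 12 choroid plexus markers spanned a mean level of -4.01 to 4.07 over the arrays, and 1 WT array, 5 with APP/PS1 vehicle and 4 with UA had it above 0. The WT arrays all lay on 1 slide together with 2 APP/PS1 vehicle arrays, and the other arrays lay on slides 2 and 3. No UA array shared a slide with a WT array, so in UA against WT group and slide cannot be told apart. By Xist and Y-linked genes, 1 of 6 WT arrays, 3 of 7 with APP/PS1 vehicle and 1 of 6 with UA read as female. Array 3 of the APP/PS1 vehicle group and array 1 of the WT group had a dim patch near the array centre. Among the members it dimmed the surroundings of Rgs5 most. The spots around Rgs5 lay at a median of -1.28 and -0.68 from their own medians over arrays. On array 1 of the WT group, those around Cldn5 and the brighter Ly6c1 probe lay at -0.23 and -0.19. Around the other member probes they lay no lower than -0.12 on any array. With these deviations subtracted, the endothelial median of APP/PS1 vehicle against WT was 0.19.

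No member passed the test in any of the 3 comparisons, and for every member the arrays of the groups overlapped. Over all genes tested, the groups did not overlap for 2.32% between APP/PS1 vehicle and WT, 0.847% between UA and APP/PS1 vehicle and 1.07% between UA and WT. In APP/PS1 vehicle against WT, 6 of 6 endothelial genes lay above 0, with a median of 0.19 on the log2 scale (0.10 to 0.31), against a median of 0.0086 over all genes tested, of which 51.4% lay above 0. Of the mural genes 2 of 4 lay above 0, with a median of 0.04 (-0.08 to 0.39). The other two were Acta2 by its brightest probe (-0.0054, against 0.17 and 0.35 by its other probes) and Rgs5 (-0.08, against 0.0060 with the deviation of surrounding spots subtracted). With the slide as a block, 10 of 10 members lay above 0 in this comparison, where the median over all genes was 0.0036. That setting rests on the 2 APP/PS1 vehicle arrays on the slide of the WT arrays. Both had a choroid plexus level above 0 (2.80 and 2.38), as did 1 of the 6 WT arrays, and the part of this was not tested. Under UA, 5 of 6 endothelial genes lay below APP/PS1 vehicle, with a median of -0.15, and 2 of 4 mural genes did, with a median of 0.0026. Over all genes tested the median of that comparison was -0.0051, and 48.8% lay above 0. The APP/PS1 vehicle arrays enter both comparisons, so high levels on them alone would give opposite signs. In limma's test across all genes with Benjamini-Hochberg adjustment, 5.10% of genes were called at an adjusted p under 0.05 between APP/PS1 vehicle and WT, against 0 of 10 members. At an unadjusted p under 0.05 it was 23.7% of genes (6059) and 2 of 10 members. Between UA and APP/PS1 vehicle 0% were called, although 3938 genes (15.4%) had an unadjusted p under 0.05, none of them a member. Between UA and WT 0.0901% were called, and 2209 genes (8.66%) had an unadjusted p under 0.05, none of them a member.

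**Figure D1:**
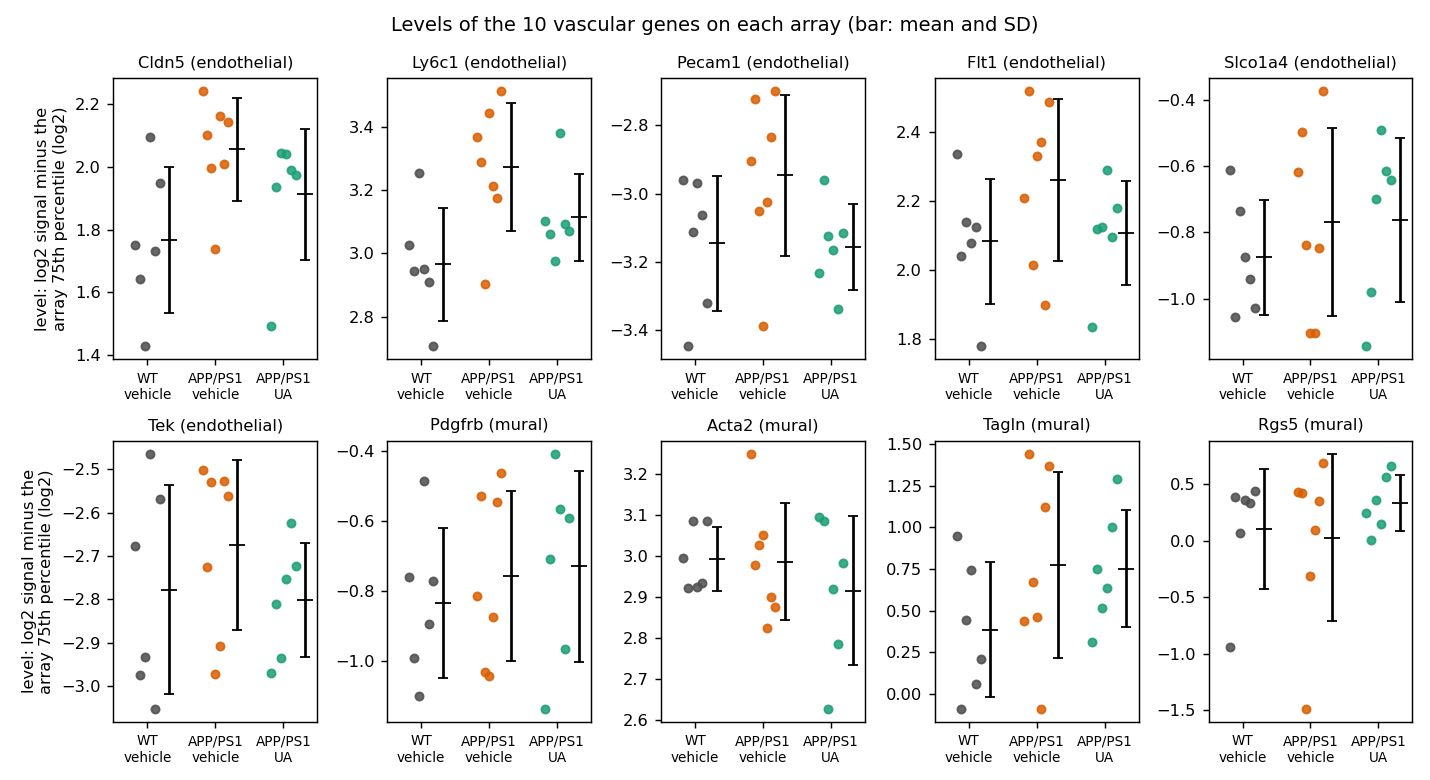
Level of each of the 10 genes on every array (vertical axis, log2 of the signal minus the array's 75th percentile; each panel has its own scale), by group on the horizontal axis, with 1 point per mouse and a bar for the mean and SD. The groups overlap in every panel, and 2 arrays stand far below the rest for Rgs5, at -1.49 and -0.94.

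Cldn5 encodes claudin-5, the main sealing protein of the tight junctions between brain endothelial cells. In WT its level ran from 1.43 through a median of 1.74 to 2.09. In APP/PS1 vehicle it ran from 1.74 through 2.10 to 2.24, and under UA from 1.49 through 1.98 to 2.04. Of the 7 APP/PS1 vehicle arrays, 6 lay above the WT mean, and the lowest of them lay at the WT median. The difference from WT was 0.29 (SE 0.11; 95% interval 0.05 to 0.53; limma, unadjusted p = 0.0186, adjusted p = 0.130), or 1.22-fold. Under UA the level was -0.14 (SE 0.11; interval -0.38 to 0.09, limma adjusted p = 0.543) from that of APP/PS1 vehicle, and none of the 6 UA arrays exceeded the APP/PS1 vehicle mean. A single UA array, at 1.49, stood apart from the other 5, of which the lowest was at 1.94.

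Ly6c1 encodes a membrane-anchored Ly6 protein that is abundant on brain capillary endothelium and also occurs on monocytes. Its WT level ran from 2.71 through 2.95 to 3.25. In APP/PS1 vehicle it ran from 2.90 through 3.29 to 3.51, and under UA from 2.97 through 3.08 to 3.38. Only the lowest APP/PS1 vehicle array lay below the WT mean. The difference from WT was 0.31 (SE 0.10; 95% interval 0.10 to 0.52; limma, unadjusted p = 0.00654, adjusted p = 0.0774), or 1.24-fold, the smallest p among the members. It crossed the threshold without APP/PS1 vehicle array 3, the lowest of its group for Ly6c1 (limma adjusted p = 0.0262, difference 0.37). It also did so without WT array 3, the highest WT array (adjusted p = 0.0316, difference 0.36). Leaving out such an array enlarges the difference by construction. Without both dim arrays, which include APP/PS1 vehicle array 3, adjusted p was 0.0334 (difference 0.38). The choroid plexus level was -4.01 on APP/PS1 vehicle array 3 and 3.44 on WT array 3. The second Ly6c1 probe moved with the brighter one over arrays (r = 0.74, group means removed) and differed from WT by 0.19 (SE 0.10, adjusted p = 0.246 over all kept probes). Under UA the main probe lay -0.16 (SE 0.10, adjusted p = 0.449) from APP/PS1 vehicle. Its paralogs Ly6c2 and Ly6a, which the array measures with other probes, differed from WT by 0.28 (SE 0.09, limma adjusted p = 0.0831) and 0.26 (SE 0.11, adjusted p = 0.156). Ly6c2 is a near-copy of Ly6c1, so its probe may share signal with that of Ly6c1.

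Pecam1 encodes CD31, an adhesion molecule of endothelial junctions that platelets and leukocytes also carry. Its level was -3.45 to -2.96 in WT (median -3.09), -3.39 to -2.70 in APP/PS1 vehicle (median -2.91) and -3.34 to -2.96 under UA (median -3.14). Both the highest and the lowest APP/PS1 arrays of the series were in the vehicle group. The differences were 0.20 (SE 0.11, limma adjusted p = 0.272) for APP/PS1 vehicle against WT and -0.21 (SE 0.11; interval -0.44 to 0.02, adjusted p = 0.362) for UA against APP/PS1 vehicle. The second of these was the lowest endothelial value of that comparison, and it passed in 1 other setting, normexp background correction of the median signals (-0.27, limma adjusted p = 0.0462). In that setting 1834 of all genes were called, against 0 otherwise. The median over all genes was -0.08 there, against -0.0051 in the main fit.

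Flt1 encodes VEGF receptor 1, which binds VEGF-A and can act as its decoy. Its level ran from 1.78 to 2.34 in WT (median 2.10), 1.90 to 2.52 in APP/PS1 vehicle (median 2.33) and 1.84 to 2.29 under UA (median 2.12). The APP/PS1 vehicle arrays covered nearly the whole span of the other groups. The differences were 0.18 (SE 0.11, limma adjusted p = 0.322) against WT and -0.15 (SE 0.11, adjusted p = 0.50) for UA against APP/PS1 vehicle. Tek encodes TIE2, the receptor of the angiopoietins. It ran from -3.05 to -2.46 in WT (median -2.80), -2.97 to -2.50 in APP/PS1 vehicle (median -2.56) and -2.97 to -2.62 under UA (median -2.78). Its differences, 0.10 (SE 0.11, adjusted p = 0.581) and -0.13 (SE 0.11, adjusted p = 0.581), were close to their standard errors.

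Slco1a4 encodes OATP1A4, an organic anion transporter of the barrier endothelium. It ran from -1.06 to -0.61 in WT (median -0.91), -1.10 to -0.37 in APP/PS1 vehicle (median -0.84) and -1.14 to -0.49 under UA (median -0.67). It was the endothelial gene with the widest spread within groups (pooled SD 0.24, against a median of 0.23 over all genes). The difference from WT was 0.11 (SE 0.13, limma adjusted p = 0.647). It was the endothelial gene that did not lie lower under UA, at 0.0066 (SE 0.13; interval -0.27 to 0.28, adjusted p = 0.988) from APP/PS1 vehicle, and that sign turned under several settings.

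Pdgfrb encodes the PDGF receptor beta, through which endothelial PDGF-B recruits pericytes. It ran from -1.10 to -0.49 in WT (median -0.83), -1.04 to -0.46 in APP/PS1 vehicle (median -0.81) and -1.14 to -0.41 under UA (median -0.65). The 3 ranges nearly coincided. The differences were 0.08 (SE 0.13; 95% interval -0.20 to 0.36, limma adjusted p = 0.748) against WT and 0.03 (SE 0.13; interval -0.25 to 0.31, adjusted p = 0.941) for UA against APP/PS1 vehicle.

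Tagln encodes transgelin (SM22-alpha), an actin-binding protein of contractile smooth muscle. It ran from -0.09 through a median of 0.33 to 0.95 in WT. In APP/PS1 vehicle it ran from -0.09 through 0.67 to 1.44, and under UA from 0.31 through 0.69 to 1.29. The lowest WT and the lowest APP/PS1 vehicle array were at the same level, and both groups spread widely. Its difference from WT, 0.39 (SE 0.24; 95% interval -0.12 to 0.89, limma adjusted p = 0.329), was the largest in size among the members and also had a wide interval. The pooled SD within groups was 0.45, at the 81.5th percentile of all genes. UA and APP/PS1 vehicle differed by -0.02 (SE 0.24, adjusted p = 0.975), while UA lay 0.36 (SE 0.25, adjusted p = 0.697) above WT.

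**Figure D2:**
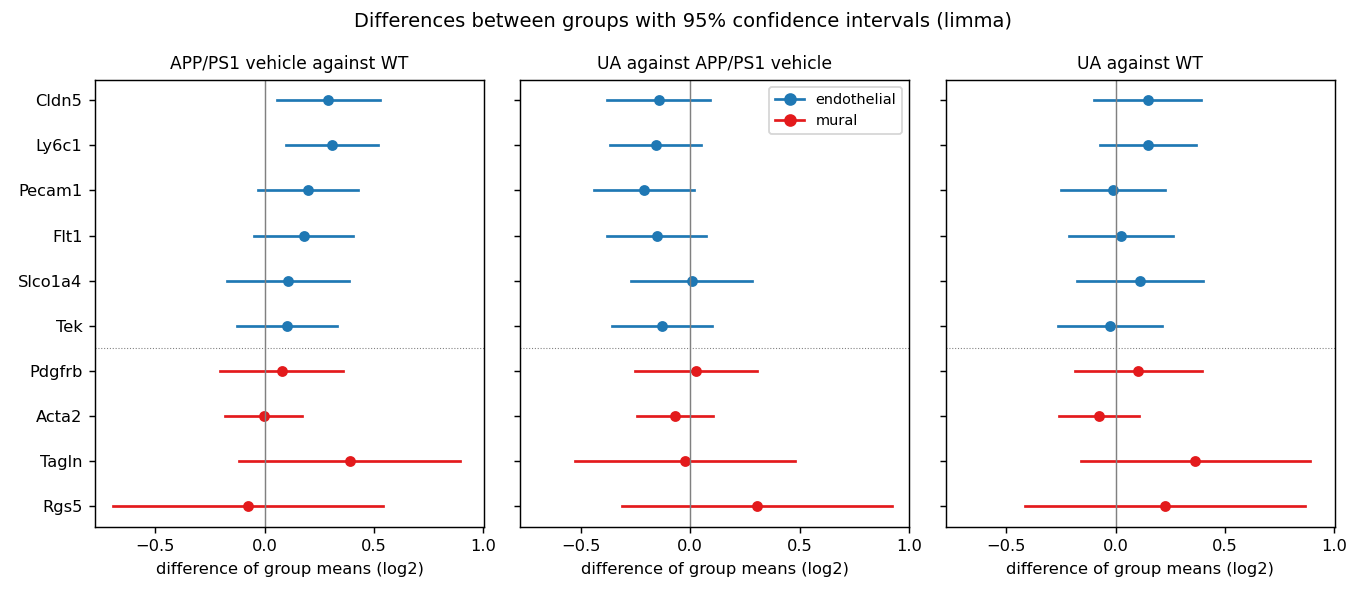
Difference of group means on the log2 scale (horizontal axis) for each gene (vertical axis) in the 3 comparisons, as points with 95% confidence intervals from limma. In APP/PS1 vehicle against WT the 6 endothelial points lie between 0.10 and 0.31, and those of the mural genes between -0.08 and 0.39 with wider intervals for Tagln and Rgs5.

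Averaged per array over the 6 endothelial genes, the level was 0.0026 ± 0.12 (SD, n = 6) in WT, 0.20 ± 0.15 (SD, n = 7) in APP/PS1 vehicle and 0.07 ± 0.12 (SD, n = 6) under UA. Averaged over the 4 mural genes it was 0.66 ± 0.13, 0.76 ± 0.32 and 0.82 ± 0.15 in the same order. The endothelial mean minus the mural mean was -0.66 ± 0.14 in WT, -0.56 ± 0.22 in APP/PS1 vehicle and -0.75 ± 0.13 under UA, with ranges that overlapped. These means describe the members and were not tested. All 6 endothelial genes stayed above WT in APP/PS1 vehicle under each of 16 other settings and when each of 13 arrays was left out. Some of these settings could not change the differences, since they kept the same probes and group means. These were no filter on dim probes, detection on all arrays, and only both groups compared. Slide as a block and within 1 slide gave the same differences. The endothelial median was 0.19 with the deviation of surrounding spots subtracted, 0.13 on male arrays and 0.21 with sex as a covariate. With the slide as a block, which rests on the 2 APP/PS1 vehicle arrays that share the slide of the WT arrays, the endothelial median was 0.32 and the mural median 0.24, and neither Cldn5 (0.41, limma adjusted p = 0.251) nor Ly6c1 (0.36, adjusted p = 0.258) passed.

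Markers of other cell types moved between the same groups. The mean of the 6 microglial markers was 1.27 to 1.52 in WT, 1.87 to 2.08 in APP/PS1 vehicle and 1.55 to 1.95 under UA, and against WT 4 of the 6 passed, all upward, in APP/PS1 vehicle (limma). The mean of the 6 neuronal markers was 5.01 to 5.25, 4.62 to 5.02 and 4.88 to 5.19 in that order, with 0 of 6 called and 6 of 6 below WT in APP/PS1 vehicle. The mean of the 4 measured blood markers was 0.78 to 2.40, 0.99 to 2.60 and 0.98 to 1.76. Of the blood markers 4 of 4 lay above 0 in APP/PS1 vehicle against WT (median 0.26) and 0 of 4 in UA against APP/PS1 vehicle (median -0.21), with none called. The 5 oligodendrocyte markers had 5 of 5 above 0 in the first comparison (median 0.23) and 0 of 5 in the second (median -0.25), with none called. Of the choroid plexus markers 12 of 12 lay above 0 in APP/PS1 vehicle against WT, with a median of 1.74 and none called. The part of all these in the endothelial values was not tested. With the mean choroid plexus level as a covariate the endothelial median against WT was 0.14, Cldn5 was at 0.28 and Ly6c1 at 0.22 (limma adjusted p = 0.174 and 0.116).

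Within groups, all 10 members had a slope above 0 on the choroid plexus level, as did 43.1% of all genes. The slope of 1 of the 10 passed (limma over all genes, adjusted p under 0.05), against 22.6% of all genes. That gene was Ly6c1, with a slope of 0.05 log2 units per log2 unit of choroid level (SE 0.01, adjusted p = 0.0138). Rgs5 had a slope of 0.11 (SE 0.05, limma unadjusted p = 0.0320, adjusted p = 0.0999), Tagln one of 0.09 (SE 0.04, unadjusted p = 0.0383, adjusted p = 0.113) and Slco1a4 one of 0.05 (SE 0.02, unadjusted p = 0.0470, adjusted p = 0.130). Cldn5 had a slope of 0.0052 (SE 0.02, limma adjusted p = 0.878). Arrays with a choroid level above 0 and below 0 form separate clusters, so relations were computed in each alone, without the lone WT array above 0. No member passed in either (exact permutation tests within groups, n = 9 each, adjusted over the 10 members; lowest adjusted p = 0.0972, for Cldn5, Pecam1 and Pdgfrb below 0).

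Acta2 encodes smooth muscle alpha-actin and is the usual marker of the arteriolar wall, but the brightest of its 3 probes did not vary with the others over arrays. The brightest probe, A_51_P450957, which stands for the gene by the rule used for all genes, ran from 2.92 to 3.09 in WT (median 2.97), 2.82 to 3.25 in APP/PS1 vehicle (median 2.98) and 2.63 to 3.1 under UA (median 2.95). It was the steadiest of the members, with a pooled SD of 0.14 at the 18.2th percentile of all genes. It differed by -0.0054 (SE 0.08; 95% interval -0.18 to 0.17, limma adjusted p = 0.975) between APP/PS1 vehicle and WT and by -0.07 (SE 0.08, adjusted p = 0.701) between UA and APP/PS1 vehicle. The second probe, A_52_P420504, had a mean level of 1.98 ± 0.19 (SD, n = 6) in WT, 2.15 ± 0.28 (SD, n = 7) in APP/PS1 vehicle and 2.09 ± 0.14 (SD, n = 6) under UA. Its differences were 0.17 (SE 0.12, adjusted p = 0.398 over all kept probes) and -0.06 (SE 0.12, adjusted p = 0.837). The third probe, A_52_P210078, was well above background on 15 of 19 arrays and had means of -4.88 ± 0.95, -4.53 ± 0.72 and -3.99 ± 0.50 in the same order. None of the 3 passed in any comparison.

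Over the 19 arrays with group means removed, the brightest probe did not follow the second (r = -0.26, rho = -0.26; permutation p = 0.295 and 0.301, adjusted 0.486 and 0.502) or Tagln (r = -0.06, rho = -0.09; permutation p = 0.818 and 0.712, adjusted 0.929 and 0.809). It followed Actg2, smooth muscle gamma-actin (r = 0.86, rho = 0.89; permutation p = 1e-05 and 2e-05, adjusted 0.00015 and 0.00025), and Actg1, the cytoplasmic gamma-actin that all cells make (r = 0.80, rho = 0.82; permutation p = 8e-05 and 7e-05, adjusted 0.00060 and 0.00066). The second probe followed Tagln (r = 0.94, rho = 0.94; permutation p = 1e-05 for both, adjusted 0.00015 and 0.00025) and Cnn1, the smooth muscle protein calponin (r = 0.93, rho = 0.91; permutation p = 1e-05 and 2e-05, adjusted 0.00015 and 0.00025). It did not follow Actg1 (r = -0.04, rho = -0.0053; permutation p = 0.861 and 0.986, adjusted 0.939 and 0.991). The third probe, though dim, followed the second (r = 0.83, rho = 0.83; permutation p = 8e-05 and 0.00018, adjusted 0.00060 and 0.0013). Actg2 did not follow the second or the third probe (r = -0.10 and -0.14). All of these belong to 75 relations of the Acta2 probes with each other and with mural, contractile and paralog genes. The relations were permuted 100000 times within groups and adjusted over the 75, and 1e-05 is the smallest p they can give. Without the 2 arrays farthest from the median of the probe, r of the brightest probe with Actg2 was 0.84 and with Actg1 0.81, and r of the second with Tagln was 0.96. Within slide 1 and slide 2, r of the second probe with Tagln was 0.95 and 0.97, and r of the brightest probe with Tagln was -0.39 and 0.01, with Actg2 0.78 and 0.86 and with Actg1 0.57 and 0.93. Actins are near-identical in coding sequence, so a probe can take up signal of a paralog, and no probe sequence was used here. Unless another probe is named, values given for Acta2 are those of the brightest probe.

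**Figure D3:**
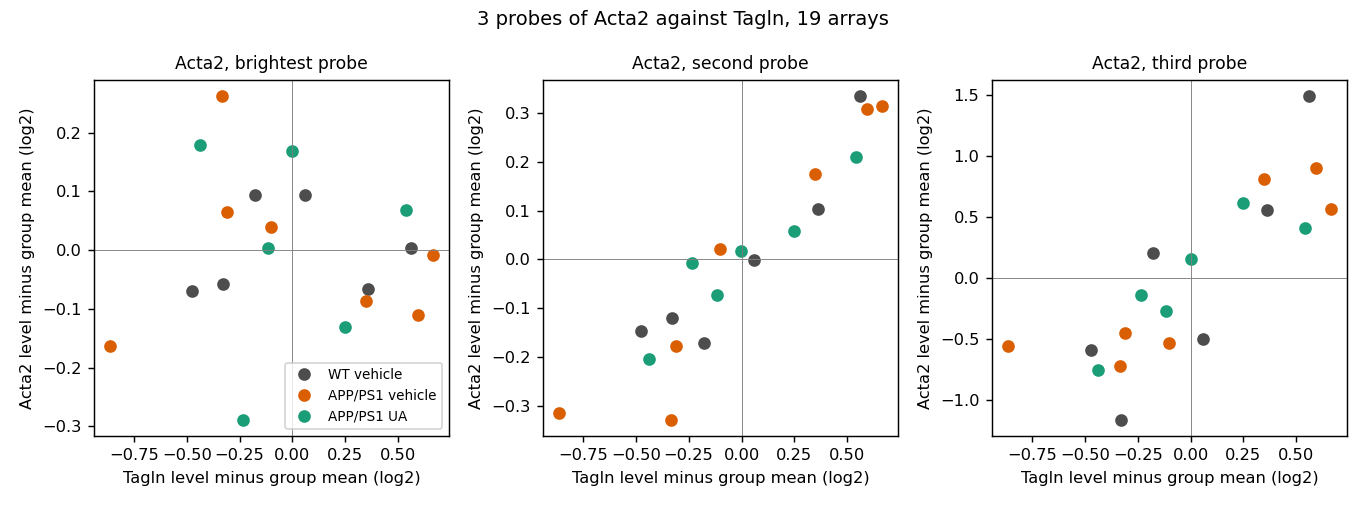
Level of each Acta2 probe (vertical axes) against that of Tagln (horizontal axes), both in log2 units with the group mean removed, for 19 arrays coloured by group. The brightest probe shows no common course with Tagln (r = -0.06), whereas the other probes rise with it (r = 0.94 and 0.83).

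The contractile genes that went with the second Acta2 probe included Actc1, cardiac alpha-actin (r = 0.93, rho = 0.96; permutation p = 1e-05 for both, adjusted 0.00015 and 0.00025), and Myl9, a regulatory light chain of smooth muscle myosin (r = 0.81, rho = 0.81; permutation p = 0.00048 and 0.00044, adjusted 0.0026 and 0.0024 over the 75 relations). Genes of smooth muscle contraction are commonly controlled by serum response factor, which binds the CArG box. The 250 bases before the gene starts of Acta2, Actc1 and Myl9, from RefSeq on build GRCm38.p6, are shown because these genes moved together and each stretch holds letters of that form, and they were chosen after these values were seen. The search took CC, then 6 bases of which at least 5 are A or T, then GG, a form that reads the same way on both strands, and the matches are in capitals. Of all 32851 such windows in the RefSeq table, 8.59% hold at least 1 match and 0.67% at least 2. Acta2 has 2 matches, starting 84 and 34 bases before the gene start, Actc1 has 4 and Myl9 has 2. The windows of Cnn1 and Tpm2 hold no such letters. Of the 10 members, 7 have an entry in that table. The genes shown were chosen for holding matches, so their counts cannot be set against the shares of all windows. A match is a description of the letters, and no binding was measured.
Acta2, chr19:34255374-34255623, minus strand: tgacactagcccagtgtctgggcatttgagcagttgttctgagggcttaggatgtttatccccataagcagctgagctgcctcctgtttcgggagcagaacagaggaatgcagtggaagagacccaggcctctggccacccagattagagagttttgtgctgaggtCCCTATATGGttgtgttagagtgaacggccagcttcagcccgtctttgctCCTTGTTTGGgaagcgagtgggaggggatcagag
Actc1, chr2:114052876-114053125, minus strand: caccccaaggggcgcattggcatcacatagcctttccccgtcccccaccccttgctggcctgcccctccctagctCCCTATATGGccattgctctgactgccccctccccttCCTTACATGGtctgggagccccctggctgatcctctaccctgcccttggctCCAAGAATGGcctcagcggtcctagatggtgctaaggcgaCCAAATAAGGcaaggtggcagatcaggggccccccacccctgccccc
Myl9, chr2:156775214-156775463, plus strand: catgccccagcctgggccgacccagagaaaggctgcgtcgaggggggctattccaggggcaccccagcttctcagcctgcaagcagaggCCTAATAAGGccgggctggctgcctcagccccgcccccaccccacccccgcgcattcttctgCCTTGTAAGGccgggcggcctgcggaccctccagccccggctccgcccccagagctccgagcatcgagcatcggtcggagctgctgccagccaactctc

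Rgs5 encodes a regulator of G-protein signalling and is a marker of pericytes. Its level was between -0.31 and 0.69 on 17 arrays, and at -1.49 on APP/PS1 vehicle array 3 and -0.94 on WT array 1. Those 2 low values coincided with the dim patch. The 133 kept spots around the Rgs5 spot deviated from their own medians over arrays by a median of -1.28 and -0.68 on these 2 arrays, and between -0.05 and 0.12 on the other 17. Spots with surroundings more than 0.5 below their medians over arrays occurred on no other array, and they made up 3.56% and 6.67% of the 59305 spots on these 2. With all arrays, Rgs5 differed by -0.08 (SE 0.29, limma adjusted p = 0.893) between APP/PS1 vehicle and WT and by 0.30 (SE 0.29, adjusted p = 0.629) between UA and APP/PS1 vehicle. Without both arrays the differences were -0.03 (SE 0.16, adjusted p = 0.899) and 0.05 (SE 0.15, adjusted p = 0.870). With the deviation of its surroundings subtracted from each spot they were 0.0060 (SE 0.16, adjusted p = 0.986) and 0.12 (SE 0.16, adjusted p = 0.711). The standard error was thus smaller in both settings, which were chosen after seeing the data, and no difference passed.

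**Figure D4:**
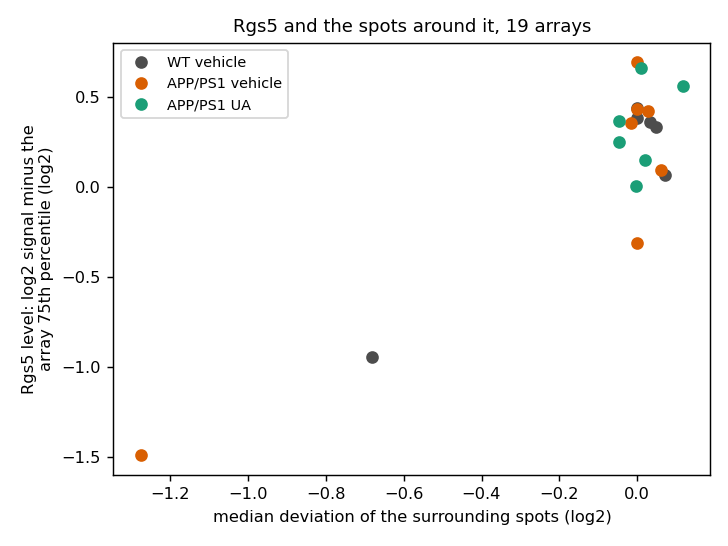
Level of Rgs5 (vertical axis, log2 of the signal minus the array's 75th percentile) against the median deviation of the spots around its own (horizontal axis, log2), 1 point per array, coloured by group. The points at -1.28 and -0.68 on the horizontal axis are the 2 arrays with a dim patch, and the other 17 lie between -0.05 and 0.12.

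Over all 19 arrays, the genes with the highest r with Rgs5 were Tchp (r = 0.95), Srsf1 (0.94) and Fam50a (0.94), and the 14 measured genes of the pericyte list had a median r of -0.04. Without both arrays Tchp, Srsf1 and Fam50a had r = 0.73, 0.73 and 0.71, and the highest were Ndufa7 (0.86), Mapk1ip1 (0.85) and Ccdc74a (0.85), none of them on the pericyte list. In that setting the pericyte list had a median r of 0.30, against 0.01 over 16059 named genes, and r with Pdgfrb was 0.46 and with Tagln 0.52, up from 0.37 and 0.09. Among the pericyte genes the highest was Tbx18, a pericyte and smooth muscle transcription factor (r = 0.64 over 17 arrays, from 0.38 over 19). The r of 4 of the 14 was lower without both arrays: Art3 went from 0.73 to 0.25, Abcc9 from 0.38 to 0.21, Cd248 from 0.56 to 0.45 and Cspg4 from 0.17 to -0.06. These are descriptions over few arrays with group means removed, and no gene was tested.

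Within groups, the members varied together only in part. With group means removed, 35 of the 45 pairs of members had r above 0 over the 19 arrays, with a median of 0.27. The median r was 0.39 for the 15 endothelial pairs, 0.01 for the 6 mural pairs and 0.20 for the 24 mixed pairs. After adjustment over the 45 pairs 3 relations passed (permutations within groups, 100000), and each joined an endothelial with a mural gene. Cldn5 rose with Pdgfrb (r = 0.72, rho = 0.66; permutation p = 0.00068 and 0.0038, adjusted 0.0306 and 0.103; 0.58 without the 2 farthest arrays, 0.78 and 0.77 within slides 1 and 2). Slco1a4 rose with Tagln (r = 0.71, rho = 0.63; permutation p = 0.00279 and 0.00864, adjusted 0.0418 and 0.103; 0.64 without the 2 farthest arrays, 0.77 and 0.76 within slides). Pecam1 rose with Pdgfrb (r = 0.65, rho = 0.66; permutation p = 0.00277 and 0.0050, adjusted 0.0418 and 0.103; 0.62 without the 2 farthest arrays, 0.52 and 0.72 within slides). By Spearman's rho none passed, and none passed within a slide or when the 2 farthest or both dim arrays were left out.

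**Figure D5:**
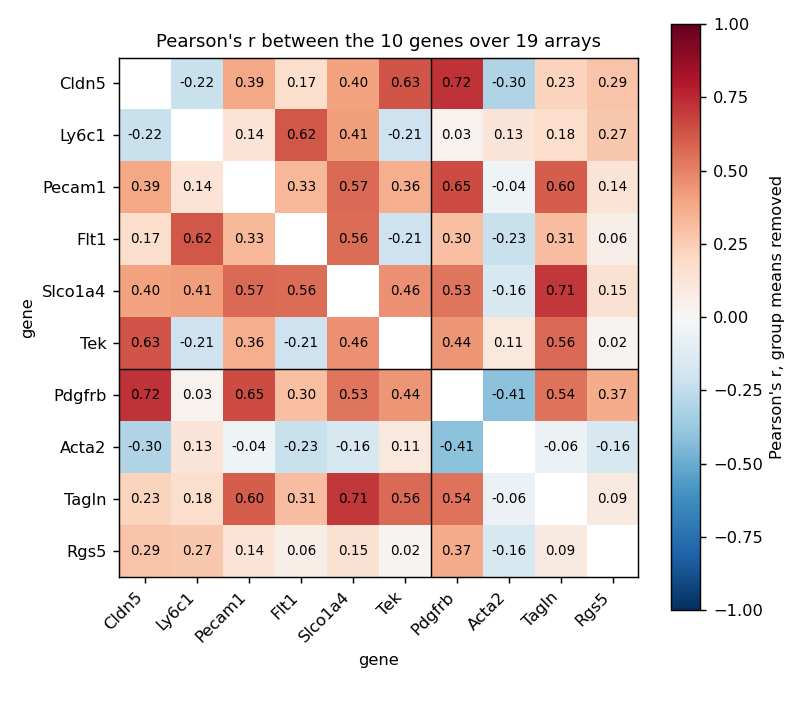
Pearson's r between each pair of the 10 genes over 19 arrays with group means removed, as colour and number, with lines parting the endothelial from the mural genes on both axes. The highest value joins Cldn5 and Pdgfrb (0.72), and the Acta2 row, measured by its brightest probe, is mostly near or below 0.

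No pair within the endothelial class passed. Cldn5 and Tek had r = 0.63 and rho = 0.56 (permutation p = 0.00705 and 0.0255, adjusted 0.0793 and 0.188; 0.61 without the 2 farthest arrays, 0.81 and 0.34 within slides 1 and 2). Ly6c1 and Flt1 had r = 0.62 and rho = 0.51 (permutation p = 0.0112 and 0.0443, adjusted 0.101 and 0.188; 0.60 without the 2 farthest arrays, 0.53 and 0.60 within slides). Cldn5 and Ly6c1, the endothelial genes with the largest differences from WT, had r = -0.22 and rho = -0.12 (permutation p = 0.37 and 0.645, adjusted 0.601 and 0.768; -0.06 without the 2 farthest arrays, -0.66 and -0.20 within slides). The named genes most like Cldn5 over the 19 arrays, out of 16059, were Gm16845 (r = 0.77), 2810403D21Rik (0.77), Ctbs (0.76), 6530411M01Rik (0.76) and Bend3 (0.75). The named genes most like the brightest Acta2 probe were Tpra1 (r = 0.87), Pygo1 (0.86), Actg2 (0.86), St6galnac4 (0.85) and Fam131a (0.83). For the other members, the genes of highest r are given as chosen after their values were seen. They were Myo1e (0.93) and Bmp2k (0.92) for Ly6c1, Nfatc4 (0.86) and Ehd4 (0.82) for Pecam1, and Rin3 (0.80) and Zfp934 (0.78) for Flt1. For Slco1a4 they were Prrg2 (0.84) and Wdr90 (0.83), and for Tek Socs1 (0.83) and Spata3 (0.79). For Tagln they were Cnn1 (0.96) and Aoc3 (0.91), and for Pdgfrb Cd248 (0.84), a stromal and pericyte membrane protein, and Sox9 (0.82).

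Among 113 measured genes of 8 other vascular lists, 76 lay above 0 in APP/PS1 vehicle against WT, with a median of 0.08, and 3 were called higher and none lower, against 5.10% of all genes called in either direction. Slco2b1, an organic anion transporter of the barrier, rose by 0.33 (SE 0.08, limma adjusted p = 0.0303). Tgfb1, the transforming growth factor beta 1 ligand that microglia also make, rose by 0.47 (SE 0.10, limma adjusted p = 0.0106). Crip1, a small LIM protein found in smooth muscle and in immune cells, rose by 0.47 (SE 0.13, limma adjusted p = 0.0420). In UA against APP/PS1 vehicle these 3 genes had differences of -0.15, -0.30 and -0.21, and 0 of the 113 were called (14 at an unadjusted p under 0.05), with 56 of 113 above 0. The part of microglial and immune cells in Tgfb1 and Crip1 was not tested.

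By list, 17 of 24 endothelial identity genes lay above WT in APP/PS1 vehicle, with a median of 0.16 and none called. The 2 of lowest p were Icam2, an endothelial adhesion molecule (0.39, SE 0.13, limma adjusted p = 0.0748), and Eng, the TGF-beta co-receptor endoglin (0.27, SE 0.09, adjusted p = 0.0914). Both were also the 2 of lowest p in UA against APP/PS1 vehicle, at -0.35 (adjusted p = 0.213) and -0.29 (adjusted p = 0.175). These 2 comparisons share the APP/PS1 vehicle arrays. Junction genes had 7 of 10 above WT (median 0.22), led by F11r, junctional adhesion molecule A, at 0.73 (SE 0.22, adjusted p = 0.0571), and Jam2 at 0.25 (SE 0.09, adjusted p = 0.0871). F11r and Icam2 rose with the choroid plexus level within groups and Jam2 fell with it (slopes 0.15, 0.05 and -0.04, limma adjusted p = 1.85e-05, 0.0486 and 0.0350), and its part in their differences was not tested. Barrier transport genes had 9 of 16 above WT (median 0.06), 1 of them called (Slco2b1).

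Of the VEGF and angiopoietin genes 10 of 14 lay above WT (median 0.03). Angpt2, the angiopoietin that destabilises vessels, was at 0.52 (SE 0.17, limma adjusted p = 0.0836) and Kdr, VEGF receptor 2, at 0.27 (SE 0.14, adjusted p = 0.235). Angpt2 also had a slope on the choroid plexus level, of -0.09 (adjusted p = 0.0161). Under UA, Vegfa was at -0.22 (SE 0.08, adjusted p = 0.227) from APP/PS1 vehicle and Pgf, placental growth factor, at 0.34 (SE 0.13, adjusted p = 0.241). The PDGF, Notch and TGF-beta genes had 8 of 16 above WT (median 0.04), with Heyl, a Notch target, at 0.58 (SE 0.21, adjusted p = 0.210) under UA against APP/PS1 vehicle.

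Pericyte genes had 8 of 14 above WT (median 0.01), led by Higd1b at 0.26 (SE 0.14, limma adjusted p = 0.255) and Anpep at 0.12 (SE 0.08, adjusted p = 0.351). Under UA against APP/PS1 vehicle 10 of 14 lay above 0 (median 0.10), led by Atp13a5 at 0.33 (SE 0.14, adjusted p = 0.258). Contractile genes had 12 of 13 above WT (median 0.18), 1 of them called (Crip1). Endothelial activation genes had 5 of 6 above WT (median 0.28), led by Tnfrsf1a, a TNF receptor, at 0.38 (SE 0.15, adjusted p = 0.127) and Vcam1, a leukocyte adhesion molecule, at 0.41 (SE 0.16, adjusted p = 0.144). Both of these rose with the choroid plexus level within groups (slopes 0.09 and 0.09, adjusted p = 0.00113 and 0.00539). The other genes of lowest p in UA against APP/PS1 vehicle stayed above the threshold. They were Cldn12, a claudin (0.12), Ager, the receptor RAGE (-0.16), Tfrc, the transferrin receptor (-0.26), the contractile genes Smtn and Tpm1 (-0.12 and -0.17), Lcn2, lipocalin 2 (-0.34), and Nostrin, a binding partner of endothelial nitric oxide synthase (0.19). Of the remaining paralogs, Actb was at -0.29 (SE 0.10, adjusted p = 0.0861) from WT in APP/PS1 vehicle, and Actg1, Actg2, Acta1, Actc1, Tagln2 and Tagln3 lay between -0.14 and 0.15 by their brightest probes with none called. Other probes of these genes differed: Actg1 was at 0.30 by A_66_P136570 (SE 0.09, limma adjusted p = 0.0690 over all kept probes) and at -0.17 by A_55_P1985984 (SE 0.07, adjusted p = 0.180), and Tagln2 at 0.33 by A_55_P2141884 (SE 0.12, adjusted p = 0.114). In UA against APP/PS1 vehicle, A_66_P136570 was at -0.38 (adjusted p = 0.118) and A_55_P2141884 at -0.32 (adjusted p = 0.240).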

How the data were processed

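Hippocampal RNA of 19 mice was measured on 1 Agilent array each. The authors deposited scanner files whose green intensity was made with Feature Extraction 12.0.3.1 under a 2-colour protocol, per the file headers: the processed intensity is background-subtracted and dye-normalized, so the red channel, which the labels do not describe and which was not used otherwise, can bear on it. Flags for outlier and background spots came from the same deposited files. Per the labels' protocols, 200 ng of RNA went into Cy3 labelling. The authors' deposited value table is a score per array that equals the standardised log10 of the processed green intensity to within 0.005; it served as an alternative.

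Here log2 of the processed intensity was taken minus the array's 75th percentile. Control and outlier spots were left out, and probes well above background on at least 6 arrays were kept. Accessions were named through a RefSeq gene table of GRCm38.p6; the brightest kept probe stood for a gene, which needed values on all arrays. Groups were compared with limma 3.58.1 (lmFit, eBayes) in R 4.3.3, 1 fit over 19 arrays, 2-sided, Benjamini-Hochberg over 25514 genes, called at an adjusted p under 0.05. The fit was tested on simulated data. Relations used NumPy 2.4.6 with permutations within groups. Each array was taken as 1 mouse, since the design text gives as many mice per group. Normexp was run on median instead of mean signals, which the files do not give. Sex, used as a covariate, came from the levels of Xist and of Y-linked genes.

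The members, lists and tests were chosen with earlier results of these data known. Named genes were all members with every probe, the called genes of each other vascular list or its 2 of lowest p, all measured paralogs, and the 5 genes most like Cldn5 and Acta2. Other lists covered choroid plexus, meninges, blood, microglia, astrocytes, oligodendrocytes, neurons and hippocampus. In APP/PS1 vehicle against WT, 8 of 10 meningeal and fibroblast, 4 of 5 astrocyte (1 called), 5 of 5 oligodendrocyte and 4 of 7 hippocampal genes lay above 0. Nothing in the labels says that shared replicate numbers pair the animals, and the main fit did not treat them as pairs. Between same-numbered arrays r was -0.54 to 0.19 for APP/PS1 vehicle and WT (2 of 6 over 0.1). It was -0.28 to 0.39 for UA and APP/PS1 vehicle (4 of 6, median 0.28) and -0.55 to 0.15 for UA and WT (2 of 6). These values cannot decide whether the numbers pair animals.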

Additional observations from a re-analysis of the deposited data

Results flagged for a closer look

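Of 36 sets looked at (10 members and both class means in 3 groups), 3 had 1 array whose gap to the nearest other exceeded Dixon's 95% critical value, a rate that chance gives in about 1 of 20 sets. Rgs5 in WT had array 1 at -0.94, with the next lowest at 0.07; the spots around it on that array lay at a median deviation of -0.68, and the 0.73 ratio of gap to range exceeded 0.625. Cldn5 under UA had array 1 at 1.49, with the next at 1.94. That array was also the lowest UA array for Flt1, Slco1a4, Tek, Pdgfrb and Tagln, and its choroid plexus level was -2.33. It was also the only UA array that read as female. Ly6c1 under UA had array 4 at 3.38, with the next at 3.1; the second of its probes was not looked at in this way.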

How the results depend on the processing

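The count of members called was 0 in each comparison. It became 1 in UA against APP/PS1 vehicle with normexp (Pecam1), and 1 in APP/PS1 vehicle against WT without both dim arrays (Ly6c1); leaving out 1 array at a time gave 0 to 1 in that comparison and 0 in both others. Of 30 member differences, 19 kept their direction in every setting run, and 69 of 850 values under other settings had the other sign. Some settings cannot change a difference or repeat another setting, so these are not counts of independent checks. The cause was not tested in any case unless given.

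For APP/PS1 vehicle against WT, Acta2 (-0.0054) was 0.038 with quantile normalization, 0.016 with the percentile over probes detected on all arrays, 0.17 with the mean of all its probes, 0.12 with slide as a block and within 1 slide, 0.0011 with sex as a covariate, 0.10 on male arrays and -0.049 to 0.022 leaving out 1 array. Rgs5 was 0.32 with slide as a block and within 1 slide, 0.0060 with the surroundings subtracted and -0.29 to 0.18 leaving out 1 array. Pdgfrb was -0.0081 on male arrays.

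For UA against APP/PS1 vehicle, Slco1a4 was -0.0079 with the percentile over detected probes, -0.088 with normexp, -0.089 with slide as a block and within 1 slide, -0.036 with sex as a covariate, -0.0047 without both dim arrays and -0.049 to 0.083 leaving out 1 array. Tagln was 0.0055 with normexp, 0.00071 in the deposited score, 0.085 on male arrays, 0.024 with the surroundings subtracted and -0.17 to 0.088 leaving out 1 array. Acta2 was 0.13 with the mean of its probes and 0.00031 with slide as a block and within 1 slide. Pdgfrb was -0.018 without both dim arrays and -0.036 to 0.11 leaving out 1 array.

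For UA against WT, slide as a block rests on the APP/PS1 vehicle arrays that lay on the slides of both groups, since no slide held both. Acta2 was 0.31 with the mean of its probes and 0.12 with slide as a block. Pecam1 was 0.22 with slide as a block, 0.0081 with the surroundings subtracted, 0.026 without both dim arrays and -0.071 to 0.026 leaving out 1 array. Tek was 0.051 on male arrays and -0.079 to 0.038 leaving out 1 array. Flt1 was -0.033 with the choroid plexus level as a covariate and -0.037 to 0.078 leaving out 1 array.

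With the replicate number as a block, Acta2 was 0.013 (APP/PS1 vehicle against WT) and Tagln 0.076 (UA against APP/PS1 vehicle); no member was called, 1 had an unadjusted p under 0.05 in the first comparison, and over all genes 346 were called in place of 1300. Whether the numbers pair the animals is not known.

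The count of all genes called between APP/PS1 vehicle and WT ran from 77 with slide as a block (23 within 1 slide) to 2154 with the surroundings subtracted (355 with no filter on dim probes, 233 on male arrays, 426 with only both groups compared, 805 in the deposited score, 1983 with normexp and with sex as a covariate), and from 391 to 2269 leaving out 1 array. In UA against WT it ran from 4 to 51 in place of 23, and in UA against APP/PS1 vehicle it was 1834 with normexp, and 0 in every other setting run. Of the 45 pairs, 3 passed; 1 did with quantile normalization, 0 within slide 1, within slide 2, by Spearman's rho, without the 2 farthest arrays and without both dim arrays, and 4 with the second Acta2 probe. Settings on spots, dim arrays and Acta2 probes were chosen after seeing the data.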
